A study of Mus musculus with 39 samples.

Results

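The comparison set 3 mice carrying AE9a leukaemia with added miR-126 (AE9a+miR-126) against 3 mice carrying AE9a leukaemia alone (AE9a), all at the fourth passage through recipient mice. These 6 arrays were chosen by their titles from a series of 39 arrays. AE9a is a shortened form of the AML1-ETO fusion protein that arises from the t(8;21) translocation of acute myeloid leukaemia, and it was present in both groups. The other arrays covered both arms at passages 1 to 3, an arm with AE9a in miR-126 knockout cells, and 3 normal controls. Donor cells, which carry the CD45.1 form of the leukocyte antigen CD45, were sorted from the marrow of recipients at the end stage of disease, so the cells of the recipient should largely be missing. The labels give 3 mice per group and passage but not their age or sex, nor the vector that carried miR-126, nor whether the mice of a passage received cells of 1 donor. The p-values rest on the spread between mice of a group, pooled over the 13 groups of all 39 arrays. Whether that spread includes differences between donors is not known.

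miR-126 is a microRNA, a short RNA that pairs with messenger RNAs mainly through its seed (bases 2 to 8 of the mature strand) and lowers their translation or stability. It is encoded in an intron of Egfl7, is abundant in endothelium and in haematopoietic stem and progenitor cells, and declines as myeloid cells mature. AML1-ETO keeps the DNA-binding domain of the runt factor AML1 (RUNX1) and represses genes of granulocyte maturation. Maturing neutrophils express their products in an order: proteins of the primary granules come first, in promyelocytes, and those of the secondary and tertiary granules, the S100 proteins and the chemotactic receptors come later. The mature strand is printed here because it is what the 2 groups differ in by design. Its sequence comes from RefSeq, build GRCm38.p6, plus strand of chr2:26591402-26591423, within an intron of Egfl7, with the seed in capitals.
mmu-miR-126a-3p: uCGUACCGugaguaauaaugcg

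The values are deposited log2 expression values, where 1 unit corresponds to a factor of 2 in signal. The scale has no zero: 5545 of the 22180 genes had a mean of at most 4.50 over all 39 arrays, which is near its dim end. A ± after a difference is the standard error of the linear model in limma. The threshold for passing was an adjusted p of 0.05 (Benjamini-Hochberg over all 22180 genes), and "rose" or "fell" is written only of such genes.

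One probe set is annotated to both Mir126a and Egfl7. It read 2.97, 2.82 and 2.79 in AE9a, and 6.60, 6.63 and 8.59 with added miR-126. All arrays with added miR-126 lay above all AE9a arrays, by 4.42 ± 0.51 on the log2 scale (limma, adjusted p = 4.73e-07 over all probe sets), and replicate 3 was the highest. The knockout arrays at the same passage read 2.78, 2.92 and 3.15. The host gene Egfl7, from a probe set of its own, read 6.42, 5.49 and 5.83 in AE9a and 6.09, 6.61 and 5.98 with added miR-126, and its difference of 0.31 ± 0.21 did not pass (limma, adjusted p = 0.270). The labels and the probe set of the added microRNA thus go the same way in every array.

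The 6 arrays were not alike in spread. Over its probe sets, the SD of an array was 2.06, 1.99 and 1.99 in AE9a, and 1.66, 1.63 and 2.01 with added miR-126. Replicates 1 and 2 with added miR-126 were compressed, whereas replicate 3 lay within the AE9a range; with 3 arrays against 3 the difference in SD had an exact two-sided permutation p of 0.3, where 0.1 is the smallest possible. Of the 39 arrays, 8 had an SD under 1.8, and 7 of these carried added miR-126. Genes were split by mean level into 4 classes of 5545. In the class with the highest levels the median difference from the AE9a mean was -0.76 in replicate 1, -0.90 in replicate 2 and 0.06 in replicate 3. In the class with the lowest levels it was 0.42, 0.45 and 0.01. Pairwise Pearson correlations over genes were 0.978 to 0.992 within AE9a, 0.977 between replicates 1 and 2 with added miR-126, and 0.910 to 0.928 between these and replicate 3.

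**Figure D1:**
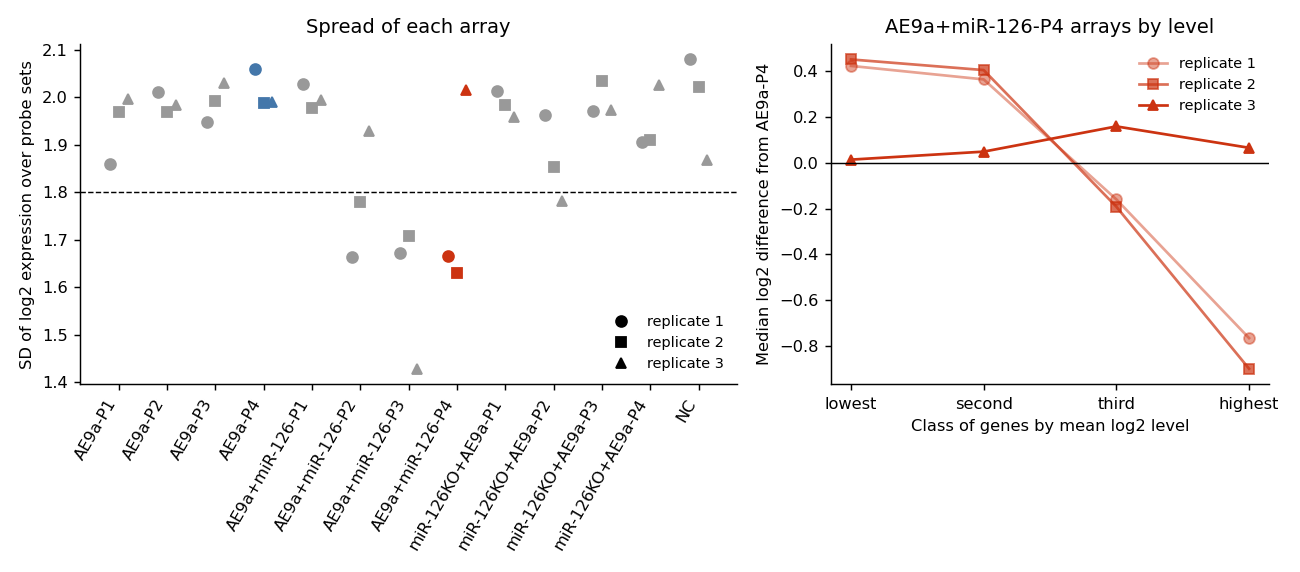
Left, SD of log2 expression over probe sets for each of the 39 arrays by group, with the 2 compared groups in colour and a dashed line at 1.8. Right, median log2 difference of each array with added miR-126 at passage 4 from the AE9a mean, in 4 classes of genes by level; replicates 1 and 2 fall from above 0.4 to below -0.7, while replicate 3 stays between 0.01 and 0.16.

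At passage 4, 5488 of 22180 genes passed (24.7%), of which 2825 were higher with added miR-126 (12.7%) and 2663 lower (12%). A change of at least 2-fold was seen in 2370 genes (10.7%), 659 of the rises (2.97%) and 1711 of the falls (7.71%), so large changes were more often falls. The median difference of all genes was 0.13. In the compressed arrays bright genes read lower and dim genes higher, so each gene was also fitted with the array SD as a covariate, after quantile normalization and without the 8 arrays of low spread. The first gave 2319 genes (10.5%; 5.93% higher, 4.53% lower), the second 4281 (19.3%; 10.5% higher, 8.78% lower) and the last 2117 (9.54%; 5.29% higher, 4.25% lower). The last fit keeps replicate 3 alone of the 3 arrays with added miR-126, whose variation is then taken from the other groups. Genes that passed in the same direction in all 4 fits numbered 1018 (4.59%), with 317 rises (1.43%) and 701 falls (3.16%); such genes are said below to hold.

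The count moved with the array left out. Without replicate 3 with added miR-126 10765 genes passed, without replicate 1 2134, and without replicate 2 2126; leaving out AE9a replicate 1 gave 3050. When the spread was taken from the 6 compared arrays alone, 1357 genes passed, 178 higher and 1179 lower. Of the rises, 1004 lay in the class of genes with the lowest levels and 164 in that with the highest. Of the falls, 1877 lay in the highest class and 22 in the lowest. Among falls that hold, 493 of 701 were in the highest class. Arrays of the groups did not overlap for 6325 genes (28.5%), with added miR-126 above in 3334 (15%) and below in 2991 (13.5%).

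Among the largest falls were genes known from mature neutrophils, beside H2-Aa of MHC class II, the T cell receptor segment Trav9d-3 and the matrix glycoprotein gene Thbs1. Retnlg, a resistin-like protein of neutrophils, read 11.92, 12.41 and 12.12 in AE9a and 4.93, 5.14 and 4.99 with added miR-126. It was among the brightest genes of the AE9a arrays and below the array median in all 3 others, replicate 3 included. The difference was -7.13 ± 0.62 (limma, adjusted p = 4.20e-09). Ifitm6, an interferon-induced transmembrane protein expressed in myeloid cells, read 11.00, 11.64 and 11.22 against 4.84, 5.36 and 4.91. Olfm4, a glycoprotein of a subset of neutrophils, read 11.90, 11.88 and 12.25 against 5.92, 6.14 and 5.40. The 12 largest falls without overlap were picked by the same rule as for the rises below, which leaves aside predicted genes and small RNAs. They were Retnlg, Stfa2l1, Stfa3, Ifitm6, Olfm4, Cstdc4, Csta2, Ltf, H2-Aa, Trav9d-3, Thbs1 and Ly6g. Their differences ran from -7.13 to -5.83, and all 12 hold. In Csta2 the gap widened through AE9a, whose means were 7.03, 9.49 and 10.19 at passages 2 to 4. With added miR-126 the Csta2 means were 4.28, 4.39, 4.30 and 4.15 at passages 1 to 4. The passage 1 difference of Csta2 was -0.11 and did not pass.

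**Figure D2:**
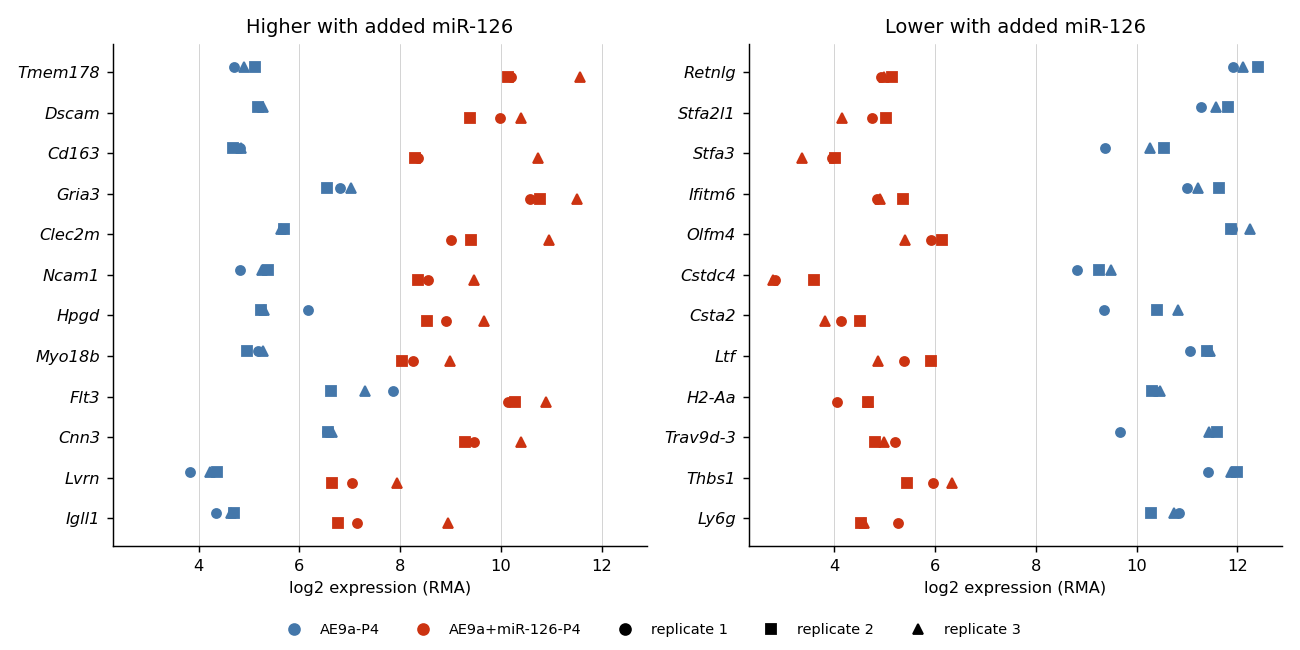
Log2 expression of the 12 largest rises and the 12 largest falls among genes that passed without overlap, 1 point per array, with marker shapes for replicates. In the right panel all AE9a points lie above 8.8 and all points with added miR-126 below 6.4, also for replicate 3, whose spread was like that of AE9a.

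Genes of the secondary granules and the S100 proteins fell as a group. Of 22 measured members, 19 fell (86.4%, against 12% of all genes) and 0 rose, and 15 of the falls hold. The median difference was -3.20, against 0.13 for all genes tested. Ltf, the lactoferrin of secondary granules, read 11.06, 11.39 and 11.45 in AE9a and 5.38, 5.93 and 4.86 with added miR-126. Every array with added miR-126 was more than 5 log2 units below every AE9a array, and the difference was -5.91 ± 0.67 (limma, adjusted p = 3.04e-07). Ngp, a secondary granule protein of the cathelin family, read 11.62, 11.94 and 11.86 against 7.52, 8.42 and 8.50, with a difference of -3.66 ± 0.30 (limma, adjusted p = 2.50e-09). S100a8, which pairs with S100a9 to form calprotectin, read 11.50, 11.74 and 11.80 against 6.43, 6.26 and 7.82. Camp, the cathelicidin precursor, read 10.55, 11.53 and 11.42 against 4.90, 4.94 and 6.92, and the gelatinase Mmp9 10.58, 11.86 and 11.61 against 6.12, 6.03 and 5.48. In Camp and S100a8 replicate 3 was the highest of the arrays with added miR-126, and still far below AE9a. The collagenase Mmp8 was an exception: it read 11.70, 11.53 and 11.80 against 11.27, 10.93 and 11.67, groups that overlap, and did not pass (-0.39 ± 0.32, limma, adjusted p = 0.355). Ncf1 and Cybb, parts of the NADPH oxidase, did not pass either, at -0.68 and -0.34.

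Receptors of mature neutrophils fell likewise, with 18 of 21 lower (85.7%, against 12% of all genes) and 0 higher. Of the falls 15 hold, and the median of the list was -3.01. Itgam, the alpha chain of the integrin Mac-1, read 10.60, 10.92 and 10.98 against 5.90, 5.81 and 7.02 (-4.59 ± 0.47, limma, adjusted p = 4.88e-08). Trem1, an activating receptor, read 11.50, 11.85 and 11.98 against 7.17, 7.87 and 6.36. The formyl peptide receptor Fpr2 read 10.10, 10.31 and 10.32 against 6.16, 6.37 and 3.96, where replicate 3 was the lowest of all 6 arrays. Cxcr2, the chemokine receptor that guides neutrophils, read 9.98, 11.13 and 10.82 against 6.20, 6.64 and 5.96. Csf3r, the receptor for granulocyte colony-stimulating factor, read 9.94, 10.45 and 10.61 against 6.91, 7.22 and 7.85. Ly6g, the antigen that defines mouse neutrophils, read 10.85, 10.28 and 10.75 against 5.27, 4.54 and 4.59. In bulk samples fewer cells of a type and less RNA per cell cannot be told apart, here and for the other cell types below.

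Primary granule genes split in direction. Of 15 measured members 3 rose (20%, against 12.7% of all genes) and 6 fell (40%, against 12%), and 2 and 3 of these hold. In the class with the highest levels 2.96% of genes rose and 33.9% fell. Mpo, the myeloperoxidase, read 9.55, 10.52 and 10.61 in AE9a and 10.66, 10.19 and 11.43 with added miR-126, overlapping groups whose difference of 0.53 ± 0.52 did not pass (limma, adjusted p = 0.440). Prtn3, the gene of proteinase 3, read 9.37, 9.59 and 9.85 against 9.52, 9.29 and 10.20, and did not pass at 0.07 ± 0.49. Ctsg, the gene of cathepsin G, read 9.69, 11.01 and 11.01 against 12.26, 12.12 and 12.61 and rose by 1.76 ± 0.58 (limma, adjusted p = 0.0273), but the call did not hold. The difference was 2.04 without the arrays of low spread (limma, adjusted p = 0.131), 1.96 with the SD covariate (0.0624), 1.32 without AE9a replicate 1 (0.152), and 1.79 and 1.86 without replicates 1 and 2 with added miR-126 (0.0789 and 0.0701). Cst7, a cathepsin inhibitor also called cystatin F, read 8.85, 8.72 and 8.81 against 11.22, 10.89 and 11.89 and rose by 2.54 ± 0.42 in a way that holds. Elane, the neutrophil elastase, fell from 10.54, 11.17 and 11.20 to 9.14, 7.97 and 10.52, where replicate 3 came close to AE9a; without the arrays of low spread its difference was -0.45 and did not pass. Ctsc, the gene of cathepsin C, which activates the serine proteases of these granules, fell by 2.69 ± 0.34 on the log2 scale.

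Stefin A genes, a cluster of cysteine protease inhibitors on chromosome 16 that is expanded in the mouse, gave the largest median shift of the lists. Of 10 measured members 8 fell (80%, against 12% of all genes), 0 rose and all 8 falls hold, at a median of -5.40. Stfa2l1 read 11.28, 11.82 and 11.57 in AE9a and 4.75, 5.03 and 4.15 with added miR-126, a difference of -6.91 ± 0.96 (limma, adjusted p = 5.34e-06). Stfa3 read 9.37, 10.54 and 10.26 against 3.96, 4.02 and 3.36. Cstdc4 read 8.81, 9.26 and 9.50 against 2.82, 3.60 and 2.78. No array of these genes came near the other group. In normal controls the means of Csta2, Stfa2 and Stfa3 were 4.03, 4.04 and 4.57, near the dim end of the scale. Those of Cstdc4 and Stfa2l1 were higher, at 6.26 and 9.52. Csta1 (4.06, 4.34 and 4.92 against 4.82, 5.30 and 4.62) and Cstdc5 (4.58, 4.88 and 4.95 against 4.34, 4.38 and 3.79) were dim in both groups. They did not pass in the main fit, although the groups did not overlap for Cstdc5. With the SD covariate and after quantile normalization 9 of the 10 members passed as lower. The genes are close copies of each other, so probes may read several of them and the 8 falls are not 8 separate measurements.

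The promoters of 5 stefin genes that moved together are shown because the cluster also shares sequence. Each line is the 120 bases before the start of the gene (RefSeq, GRCm38.p6, printed 5′ to 3′ on the strand of the gene). Stfa2l1 lies at chr16:36156691-36156810 on the plus strand, Stfa1 at chr16:36277028-36277147 plus, Cstdc4 at chr16:36184092-36184211 plus, Stfa3 at chr16:36455393-36455512 minus and Stfa2 at chr16:36408364-36408483 minus. Capitals mark ACCTTTAAAACCC and CACACTCATT, the longest string shared by all 5 windows and the first of 2 strings of equal length that are the longest outside it; the other is agaggaggag, left in lower case.
Stfa2l1: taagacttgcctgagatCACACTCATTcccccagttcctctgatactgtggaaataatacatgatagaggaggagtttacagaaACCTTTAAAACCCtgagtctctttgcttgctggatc
Stfa1: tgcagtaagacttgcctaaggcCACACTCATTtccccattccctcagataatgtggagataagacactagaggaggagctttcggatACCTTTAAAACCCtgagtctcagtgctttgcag
Cstdc4: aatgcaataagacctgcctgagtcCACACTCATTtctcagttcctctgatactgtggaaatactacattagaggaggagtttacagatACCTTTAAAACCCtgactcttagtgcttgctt
Stfa3: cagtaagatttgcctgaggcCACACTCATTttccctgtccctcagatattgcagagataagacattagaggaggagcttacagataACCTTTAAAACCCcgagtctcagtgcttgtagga
Stfa2: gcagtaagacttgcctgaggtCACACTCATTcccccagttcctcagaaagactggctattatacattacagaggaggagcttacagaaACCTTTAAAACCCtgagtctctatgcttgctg

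Of 32851 mouse promoters in the RefSeq table, 8 (0.0244%) held ACCTTTAAAACCC on either strand of the same window, and 14 (0.0426%) held CACACTCATT. Of the 10 measured stefin genes 9 are in that table. The first string was found in 6 of them (Csta3, Cstdc4, Stfa1, Stfa2, Stfa2l1, Stfa3) and the second in 7 (Csta1, Cstdc4, Cstdc5, Stfa1, Stfa2, Stfa2l1, Stfa3). Since the strings were chosen from 5 of these promoters, their presence there is no finding.

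Monocyte and macrophage genes fell in part. Of 51 measured members 28 fell (54.9%, against 12% of all genes) and 1 rose (1.96%, against 12.7%). Of the falls 19 hold, and the median of the list was -1.35. In the class with the highest levels 33.9% of genes fell. Thbs1, the adhesive glycoprotein thrombospondin 1, read 11.42, 11.99 and 11.88 in AE9a and 5.96, 5.44 and 6.34 with added miR-126, a difference of -5.85 ± 0.51 (limma, adjusted p = 4.20e-09). The fibronectin gene Fn1 read 12.02, 11.59 and 11.80 against 6.43, 6.32 and 8.03. Adgre1, which encodes the macrophage antigen F4/80, read 10.18, 9.31 and 9.29 against 6.18, 6.62 and 5.02. The groups were far apart for all 3 genes, in replicate 3 as well. Pla2g7, a phospholipase that degrades platelet-activating factor, and Vcan, the proteoglycan versican, fell by 5.13 and 4.13 on the log2 scale.

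Other genes of monocytes did not pass or went the other way. Ly6c2, a surface antigen of inflammatory monocytes, lay between 11.84 and 12.37 in all 6 arrays, with overlap (0.26, limma, adjusted p = 0.303). Cd68, a lysosomal protein, read 11.18, 10.40 and 10.67 against 10.42, 10.38 and 11.15. Csf1r, the receptor for macrophage colony-stimulating factor, read 10.40, 9.43 and 9.46 against 8.29, 8.18 and 9.67, and its difference of -1.05 did not pass (limma, adjusted p = 0.0787). The single rise was Cd163, the haemoglobin scavenger receptor of macrophages, which read 4.83, 4.67 and 4.83 against 8.36, 8.29 and 10.73 (4.35 ± 0.67, limma, adjusted p = 2.38e-05). Cd163 thus moved against the rest of its list, most in replicate 3. Tgfbi, an extracellular matrix protein made by monocytes, had the smallest adjusted p among the genes named here: 11.85, 11.52 and 11.79 fell to 7.48, 7.49 and 8.12 (-4.02 ± 0.25, limma, adjusted p = 4.36e-12).

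Among MHC class II and dendritic cell genes, 9 of 22 fell, 8 of them holding. The falls were 40.9% of the list, against 12% of all genes and 33.9% of the class with the highest levels. The 1 member of the list that rose (4.55%, against 12.7% of all genes) was Flt3. H2-Aa and H2-Ab1 encode the 2 chains of the class II molecule I-A. H2-Aa read 10.38, 10.31 and 10.46 in AE9a and 4.06, 4.68 and 4.68 with added miR-126 (-5.91 ± 0.62, limma, adjusted p = 7.90e-08). H2-Ab1 read 10.86, 10.79 and 11.05 against 4.89, 5.49 and 5.10, a gap as wide as that of its partner. H2-Eb1, the beta chain of I-E, read 9.79, 9.60 and 9.92 against 7.09, 6.45 and 5.78. The peptide-loading chain H2-DMa fell from 9.73, 9.35 and 9.61 to 7.34, 7.24 and 7.22. The costimulatory ligands Cd80 and Cd86 fell by 3.41 ± 0.44 and 2.86 ± 0.43 on the log2 scale. Ciita, the coactivator that class II promoters depend on, was dimmer: it read 6.33, 6.43 and 6.55 against 6.30, 6.43 and 5.59, with overlapping groups (-0.33, limma, adjusted p = 0.150).

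The promoters of H2-Aa and H2-Eb1 are shown for the Y box, the element of class II promoters that carries an inverted CCAAT and is bound by NF-Y. The lines give the 120 bases before each start (RefSeq, GRCm38.p6, strand of the gene), H2-Aa at chr17:34287824-34287943 on the minus strand and H2-Eb1 at chr17:34305747-34305866 on the plus strand, with CTGATTGG in capitals.
H2-Aa: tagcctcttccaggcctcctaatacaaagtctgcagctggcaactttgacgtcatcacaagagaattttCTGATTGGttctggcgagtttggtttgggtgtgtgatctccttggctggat
H2-Eb1: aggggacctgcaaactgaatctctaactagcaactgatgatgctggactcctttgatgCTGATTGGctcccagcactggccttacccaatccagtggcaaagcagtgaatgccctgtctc

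CTGATTGG on either strand was found in this window in 934 of the 32851 promoters (2.84%). Of 9 measured class II genes 8 are in the RefSeq table, and 4 of them held it: H2-Aa, H2-Eb1, H2-Eb2 and H2-Oa. H2-Aa and H2-Eb1 fell; H2-Eb2 (-0.20) and H2-Oa (-0.07), which were dim in both groups, did not pass. H2-Ab1 has no entry in the table.

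Some sensors of microbes and some cytokines fell. Of 22 Toll-like receptors and related recognition genes 14 fell (63.6%, against 12% of all genes) and 0 rose. Of the falls 10 hold, and the median of the list was -1.29. Tlr13, a receptor for bacterial ribosomal RNA, read 9.11, 9.22 and 9.35 against 5.23, 5.18 and 6.23 (-3.68 ± 0.49, limma, adjusted p = 2.73e-06). Tlr8 fell by 3.40 ± 0.48 on the log2 scale, and the adaptor Myd88 by 1.07 ± 0.20. Of 33 inflammatory cytokines and chemokines 11 fell (33.3%), 8 of them holding, 0 rose and 22 did not pass; 12% of all genes fell, and 33.9% of those in the class with the highest levels. Il1b, the gene of interleukin 1 beta, read 11.33, 11.39 and 11.36 against 6.90, 6.31 and 4.67 (-5.40 ± 0.73, limma, adjusted p = 3.35e-06). Cxcl2, a chemokine that attracts neutrophils, read 10.77, 11.09 and 11.24 against 5.82, 6.13 and 4.71. Ccl6 read 9.94, 9.92 and 10.14 against 5.05, 5.12 and 6.14. For Il1b and Cxcl2 replicate 3 was the lowest array. Not all cytokines moved: Ccl3 read 12.35, 12.52 and 12.44 against 11.99, 12.26 and 11.98 (-0.36, limma, adjusted p = 0.304), and Tnf 11.00, 11.68 and 11.18 against 10.50, 10.70 and 9.94 (-0.91, limma, adjusted p = 0.111). Feedback genes of NF-kappaB fell in 11 of 19 cases (57.9%, against the same 12% and 33.9%), 5 of them holding. The deubiquitinase Tnfaip3 went from 10.40, 10.18 and 9.95 to 8.06, 8.39 and 8.47.

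Interferon-induced genes fell less evenly, and the AE9a arrays differed among themselves. Of 32 type I interferon genes 14 fell (43.8%, against 12% of all genes) and 1 rose (3.12%, against 12.7%), with 5 falls holding. In the class with the highest levels 33.9% of genes fell. With the SD covariate 6 of the 32 passed as lower, where 4.53% of all genes did. Zbp1, a sensor of Z-form nucleic acid, read 7.68, 8.92 and 9.16 against 6.31, 5.70 and 5.73 (-2.67 ± 0.39, limma, adjusted p = 1.21e-05). Of 14 GTPases induced by interferon gamma 10 fell (71.4%, against 12% of all genes), 6 of them holding. The knockout at passage 4 was also lower than the same AE9a arrays in 6 of the 14 (1.03% of all genes). Gbp4 read 5.17, 8.27 and 8.14 against 3.85, 3.81 and 4.18, so AE9a replicate 1 stood well below its 2 fellows. Its AE9a means were 4.41, 4.65, 5.36 and 7.19 at passages 1 to 4, and 4.63, 4.01, 4.05 and 3.95 with added miR-126. The mean log2 level of these GTPases was 5.99, 7.23 and 7.32 in AE9a and 5.51, 5.37 and 5.32 with added miR-126. In the Ifi200 family 2 of 8 members fell (25%, against 12% of all genes). Ifi204, a cytosolic DNA sensor, read 8.85, 8.18 and 8.88 against 3.77, 2.98 and 3.42 (-5.25 ± 0.55, limma, adjusted p = 7.49e-08), and Ifi205 fell by 4.12 ± 0.62 on the log2 scale. The other 6 did not pass.

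**Figure D3:**
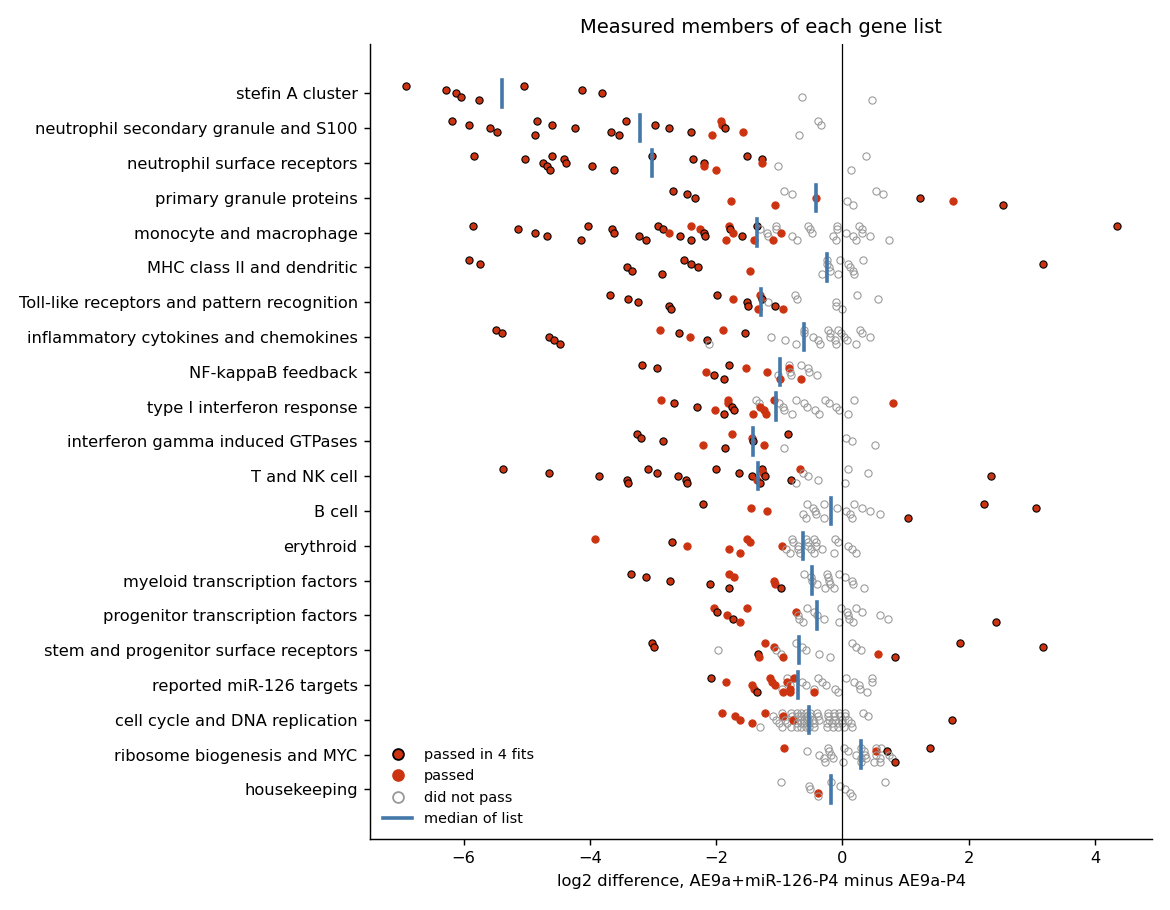
Log2 difference between the groups for each measured member of 21 gene lists, 1 point per gene; filled points passed, filled points with a black edge passed in all 4 fits, and blue bars are list medians. The stefin and neutrophil lists have medians of -3.01 or lower, while the medians of cell cycle, ribosome biogenesis and housekeeping genes lie between -0.53 and 0.30.

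Genes of T cells were present in the AE9a arrays of passage 4 and low with added miR-126. Of 28 T and NK cell genes 20 fell (71.4%, against 12% of all genes) and 1 rose (3.57%, against 12.7%), and 17 of the falls hold. Cd3g, a chain of the T cell receptor complex, read 8.62, 9.96 and 9.65 in AE9a and 4.81, 5.06 and 4.41 with added miR-126 (-4.65 ± 0.50, limma, adjusted p = 8.89e-08). The chemokine Ccl5 read 11.13, 12.10 and 11.88 against 6.62, 6.52 and 5.84, and granzyme B (Gzmb) 7.21, 9.08 and 9.10 against 4.62, 4.78 and 4.42. Trav9d-3, a variable segment of the T cell receptor alpha chain, fell by 5.90 ± 0.59 on the log2 scale. AE9a replicate 1 was the lowest AE9a array for each of these genes, and none overlapped. The AE9a mean of Cd3g was 6.75, 5.55, 6.47 and 9.41 at passages 1 to 4. With added miR-126 it was 6.04, 4.76, 4.85 and 4.76, so this gap widened mainly through AE9a. In Ccl5 the AE9a means were 10.89, 9.82, 10.13 and 11.71, and those with added miR-126 10.83, 8.56, 6.85 and 6.33, so both groups moved. The mean log2 level over the 28 genes was 6.41, 7.46 and 7.23 in AE9a against 5.39, 5.46 and 5.24. The mean of the interferon gamma GTPases was also lower with added miR-126. AE9a replicate 1 was the lowest AE9a array for both lists, but within each group the order of the replicates differed between the lists. The part of the T and NK cell genes in the GTPase difference was not tested. The exception was Klrb1c, the NK1.1 antigen, which rose from 3.36, 3.96 and 4.34 to 5.79, 6.18 and 6.73, while the NK cell markers Ncr1 and Gzma did not pass.

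Among 22 B cell genes 3 rose and 3 fell (13.6% each, against 12.7% and 12% of all genes), a share near the background. The 3 that rose were Igll1, Dntt and Rag2. Igll1, the surrogate light chain of pre-B cells, read 4.34, 4.69 and 4.64 against 7.15, 6.77 and 8.95 (3.07 ± 0.50, limma, adjusted p = 5.53e-05). Dntt, the gene of terminal transferase, read 4.43, 4.58 and 4.71 against 5.32, 6.01 and 9.14, and Rag2, part of the V(D)J recombinase, 3.24, 3.27 and 3.18 against 3.98, 4.27 and 4.56. Replicate 3 was the highest array for all 3. Without it the difference of Dntt was 1.09 in place of 2.25 and passed (limma, adjusted p = 0.00598); with only the 6 arrays fitted Dntt did not pass (adjusted p = 0.185). Genes of mature B cells did not rise with them: Cd79a fell from 6.78, 6.50 and 7.20 to 4.78, 4.78 and 4.29, and Pax5 and Ms4a1 read between 4.09 and 5.67 in all 6 arrays and did not pass.

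Of 24 genes of mast cells, basophils and eosinophils 6 fell (25%, against 12% of all genes) and 1 rose (4.17%, against 12.7%). Of the falls 3 hold, where 3.16% of all genes are falls that hold. Cpa3, a mast cell protease also found in progenitors, read 11.48, 10.16 and 10.09 against 4.81, 5.35 and 4.56 (-5.67 ± 0.74, limma, adjusted p = 2.45e-06). Hdc, the enzyme that makes histamine, read 9.24, 10.24 and 10.28 against 5.67, 5.52 and 5.62. The medians over probe sets of the arrays with added miR-126 were 5.66, 5.67 and 5.42. Cpa3 lay below the median of each of these arrays and Hdc near it. Mcpt8, a basophil protease, went the other way, from 5.67, 6.63 and 6.17 to 7.40, 7.31 and 9.24, but did not pass without AE9a replicate 1 (1.58, limma, adjusted p = 0.0544).

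Erythroid genes fell in 8 of 30 cases (26.7%, against 12% of all genes) and rose in 0; 1 fall holds, near the 3.16% of all genes. AE9a replicate 1 stood apart here: Car1, the gene of carbonic anhydrase 1, read 10.85, 8.16 and 6.39 in AE9a and 6.53, 6.28 and 4.50 with added miR-126, and the groups overlap. Car1 is the fall that passed in all 4 fits, but without AE9a replicate 1 its difference was -1.50 in place of -2.69 and did not pass (limma, adjusted p = 0.0950), nor did it with only the 6 arrays fitted (0.190). The mean log2 level of the erythroid list was 7.76 in that array and 6.35 and 6.13 in the other 2 AE9a arrays, against 5.84 to 5.92 with added miR-126. Of 24 endothelial and stromal genes 2 were higher (8.33%, against 12.7% of all genes) and 1 lower (4.17%, against 12%), with 0 holding. Their mean levels were 5.20 to 5.50 in all 6 arrays. Ptprc, which encodes CD45 itself, read 11.02, 11.01 and 10.76 against 10.04, 10.11 and 10.21, bright in every array, with a difference of -0.82 ± 0.28 (limma, adjusted p = 0.0345) that does not hold.

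Transcription factors of myeloid maturation fell in 10 of 25 cases and rose in 0, with 6 holding. The falls were 40% of the list, against 12% of all genes and 33.9% of the class with the highest levels. Cebpe, which drives secondary granule genes, read 8.48, 10.12 and 9.93 in AE9a and 5.78, 6.25 and 6.46 with added miR-126 (-3.35 ± 0.61, limma, adjusted p = 0.000206). Bhlhe40, a basic helix-loop-helix repressor, read 10.62, 11.07 and 11.01 against 8.37, 8.34 and 6.65, with replicate 3 lowest. The nuclear receptor Nr4a1 fell by 2.74 ± 0.56 on the log2 scale, and Id2, an inhibitor of E proteins, by 2.10 ± 0.36. Spi1, which encodes PU.1, fell from 9.33, 9.47 and 9.51 to 8.06, 8.06 and 8.93 and did not pass without the arrays of low spread. Cebpa, a factor of granulocyte commitment that AML1-ETO is known to lower, read 8.43, 8.23 and 7.81 against 8.58, 7.81 and 9.12, groups that overlap (0.35 ± 0.50, limma, adjusted p = 0.607). Irf8 and Gfi1 did not pass either.

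Progenitor genes moved in both directions. Of 25 progenitor transcription factors 1 rose (4%, against 12.7% of all genes) and 7 fell (28%, against 12%), 1 and 2 of them holding. In the class with the highest levels 33.9% of genes fell. With the SD covariate 4 of the factors passed as higher and 2 as lower. The rise was Myb, a factor needed for progenitor growth, which read 9.55, 9.91 and 9.76 against 12.26, 12.31 and 11.94 (2.43 ± 0.41, limma, adjusted p = 8.20e-05), so that all arrays with added miR-126 were more than 2 log2 units above all AE9a arrays. Of 22 stem and progenitor receptors 4 rose (18.2%, against 12.7% of all genes) and 7 fell (31.8%, against 12%), 3 of each holding. Flt3, a receptor tyrosine kinase of lymphoid-primed and myeloid progenitors, read 7.85, 6.62 and 7.30 against 10.14, 10.28 and 10.89 (3.18 ± 0.63, limma, adjusted p = 0.000548). Cd34 rose from 7.04, 8.32 and 8.51 to 9.01, 9.75 and 10.72, without overlap, but did not pass without AE9a replicate 1 (1.41, limma, adjusted p = 0.0823) or with only the 6 arrays fitted (0.0837). Kit, the receptor for stem cell factor, fell from 8.38, 7.62 and 7.67 to 6.11, 6.58 and 7.28 (-1.23 ± 0.43, limma, adjusted p = 0.0346), but not in the fit without the arrays of low spread. The shared beta chains of the interleukin 3 and GM-CSF receptors, Csf2rb and Csf2rb2, fell by 1.33 and 2.98 on the log2 scale.

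Among genes that passed without overlap, and leaving aside predicted genes and small RNAs, the 12 largest rises were Tmem178, Dscam, Cd163, Gria3, Clec2m, Ncam1, Hpgd, Myo18b, Flt3, Cnn3, Lvrn and Igll1, and all 12 hold. Tmem178, a transmembrane protein of the endoplasmic reticulum, read 4.70, 5.11 and 4.89 in AE9a and 10.19, 10.13 and 11.56 with added miR-126 (5.73 ± 0.53, limma, adjusted p = 7.47e-09). It went from below the array median in AE9a to among the bright genes in all 3 arrays with added miR-126. Dscam, a neuronal adhesion molecule, read 5.20, 5.17 and 5.29 against 9.98, 9.39 and 10.39 (4.70 ± 0.54). Gria3, a subunit of AMPA-type glutamate receptors, read 6.81, 6.55 and 7.03 against 10.57, 10.78 and 11.51. Ncam1, the neural cell adhesion molecule CD56, read 4.82, 5.37 and 5.27 against 8.55, 8.36 and 9.47. The C-type lectin gene Clec2m rose by 4.12 ± 0.38 and Hpgd, which breaks down prostaglandins, by 3.47 ± 0.64. Myo18b, a myosin heavy chain, Cnn3, an actin-binding calponin, and Lvrn, an aminopeptidase, rose by 3.29, 3.13 and 3.07. In normal controls Gria3, Ncam1 and Cnn3 had means of 8.68, 8.62 and 8.52, and Igll1, Hpgd and Flt3 of 7.56, 7.17 and 6.93. Those of Tmem178, Dscam, Myo18b, Clec2m, Cd163 and Lvrn were lower, at 4.92, 5.62, 5.55, 5.56, 5.01 and 4.17. The first 3 were thus already bright in normal marrow, and Igll1 there was near its mean of 7.62 with added miR-126.

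Genes reported as targets of miR-126 passed as lower in 14 of 32 cases (43.8%) and as higher in 0, against 12% lower among all genes and 33.9% in the class with the highest levels. The median was -0.71, but 2 of the falls hold and the median was -0.15 without the arrays of low spread. The ones that hold are Vegfa, a growth factor of vessels, and Vcam1, an adhesion molecule. Vegfa fell from 7.40, 8.84 and 8.91 to 6.18, 6.45 and 6.29, and Vcam1 from 7.25, 7.99 and 8.24 to 6.59, 6.57 and 6.26. Against the same AE9a arrays, the knockout at passage 4 differed by -2.86 for Vegfa and -1.08 for Vcam1, and both passed. Added miR-126 minus knockout was 0.78 and -0.27, and neither passed. Vcam1 had AE9a means of 6.63, 6.11, 6.66 and 7.82 at passages 1 to 4. With added miR-126 these were 6.54, 6.23, 6.39 and 6.47. Errfi1, an inhibitor of EGF receptor kinases, read 9.54, 9.39 and 9.79 against 8.67, 9.05 and 6.79 (-1.40 ± 0.52, limma, adjusted p = 0.0469), with most of the fall in replicate 3; without that array it was -0.71 and did not pass (adjusted p = 0.249). Irs2, an adaptor of insulin receptor signalling, fell from 9.06, 8.74 and 8.93 to 7.42, 7.59 and 7.44. Spred1, a brake on RAS signalling, read 8.61, 7.74 and 7.56 against 6.97, 6.27 and 7.82, groups that overlap (-0.95 ± 0.37, limma, adjusted p = 0.0570). Zzef1, a zinc finger protein, did not pass at -0.38 ± 0.24. The runt factors and the ETO family did not pass in any of 6 measured members: Runx1 read 9.91, 9.78 and 9.82 against 9.30, 9.19 and 10.34, and Runx1t1, the gene of ETO, 5.76, 6.14 and 6.23 against 6.09, 6.36 and 6.04. The sources used here do not say whether its probes read the AE9a transcript.

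Counts of growth genes differed with and without the arrays of low spread. Of 68 cell cycle and replication genes 1 rose (1.47%, against 12.7% of all genes) and 7 fell (10.3%, against 12%), and 0 of the falls hold; the median was -0.53, and 0.44 without the arrays of low spread. The rise was Cdk6, a kinase of G1 entry, which read 9.75, 9.73 and 9.56 against 11.28, 11.21 and 11.77 (1.74 ± 0.34, limma, adjusted p = 0.000453) and holds. Mki67, the proliferation antigen Ki-67, read 10.41, 9.68 and 9.78 against 9.52, 8.76 and 10.26, where replicates 1 and 2 were lowest and replicate 3 lay within AE9a. Of 31 ribosome biogenesis and MYC genes 4 rose (12.9%, against 12.7% of all genes) and 1 fell, a share of rises near the background. The number of rises was 16 without the arrays of low spread, where 5.29% of all genes rose, 11 with the SD covariate (5.93% of all genes) and 18 after quantile normalization (10.5%), with 0 falls in each. Ppan, a factor of large subunit assembly, read 8.52, 8.31 and 8.36 against 9.55, 10.02 and 9.77 and passed in all 4 fits.

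Y-linked genes differed between the groups. Eif2s3y, a translation factor subunit, read 8.30, 7.69 and 7.64 in AE9a and 4.33, 3.74 and 3.95 with added miR-126 (-3.87 ± 0.86, limma, adjusted p = 0.00182), Uty 7.25, 6.38 and 6.55 against 3.38, 3.57 and 3.32, and Kdm5d 6.64, 5.93 and 6.10 against 3.24, 3.55 and 3.73. None overlapped. Without the arrays of low spread the differences of Eif2s3y, Uty and Kdm5d were -3.92, -3.40 and -2.49 and did not pass (limma, adjusted p = 0.0718, 0.0551 and 0.114); with the SD covariate and after quantile normalization all 3 passed. Xist, the RNA of the inactive X chromosome, read 11.09 to 11.99 in all 6 arrays. The part of this difference in the other results was not tested.

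For the same difference few genes passed at passage 1, more at the later passages and most at passage 3. A gene that did not pass at passage 1 could still have a large difference there. It was 2.37 for Cd163, 2.17 for Hpgd and 1.70 for Flt3, against 0.03 for Tmem178 and -0.09 for Clec2m. With the same test, 7 genes passed at passage 1 (0.0316%; 0.0271% higher, 0.00451% lower), 1964 at passage 2 (8.85%; 3.18% higher, 5.68% lower) and 11567 at passage 3 (52.2%; 27.3% higher, 24.8% lower), where all 3 arrays with added miR-126 had an SD under 1.8. Of the 2825 rises at passage 4, 0 passed as a rise at passage 1, 376 at passage 2 (13.3% of the passage 4 rises and 53.3% of those at passage 2) and 2158 at passage 3 (76.4% and 35.6%). Of the 2663 falls, 0, 720 (27% and 57.2%) and 2309 (86.7% and 41.9%) passed as falls at those passages. Of the genes that hold, 198 of 317 rises and 613 of 701 falls also passed in the same direction at passage 3. At passage 1, 70% of the rises that hold and 61.5% of the falls that hold had the same sign. Of all passage 4 calls it was 28.5% of the rises and 50.4% of the falls.

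The change itself was tested: the difference at passage 4 minus that at passage 1, which share no array, passed in 2336 genes (10.5%), 1018 of them toward higher (4.59%) and 1318 toward lower values (5.94%). Ifi204 changed by -6.46 ± 0.78 (limma, adjusted p = 7.39e-06); its differences were 1.21 at passage 1 and -4.71, -5.39 and -5.25 at passages 2, 3 and 4. Retnlg changed later. Its differences were -0.65, 0.67 and -0.70 at passages 1 to 3, none of which passed, and -7.13 at passage 4 (change -6.48 ± 0.88, limma, adjusted p = 1.96e-05). Stfa2l1 and Stfa3 fell at passages 3 and 4, and their changes were -6.42 and -6.56; in Stfa3 part of it came from AE9a, whose mean went from 6.63 ± 1.27 at passage 1 to 10.05 ± 0.61 at passage 4 (SD, n = 3). Tmem178 had differences of 0.03, 2.16, 4.29 and 5.73 at passages 1 to 4 and Clec2m of -0.09, 1.04, 3.34 and 4.12, a stepwise increase, with changes of 5.70 ± 0.74 and 4.21 ± 0.54. Mid1, a ubiquitin ligase, changed by 3.55. Btbd35f1, which changed by 3.38, read 11.17, 11.23 and 7.66 with added miR-126 at passage 4, so replicate 3 was within the AE9a range of 7.06 to 8.21, and its passage 4 difference without the arrays of low spread was 0.18 and did not pass.

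**Figure D4:**
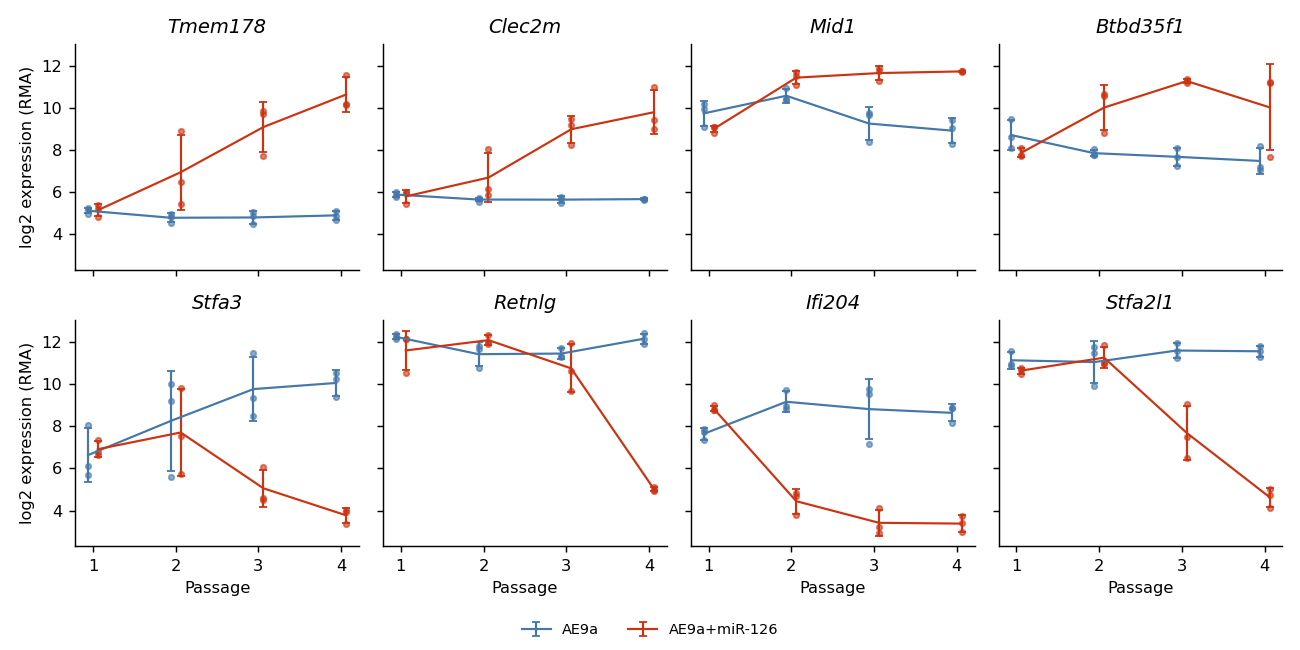
Log2 expression at passages 1 to 4 in AE9a and AE9a+miR-126 for the 4 largest changes of each sign between passages 1 and 4, with points for mice and lines through means ± SD (n = 3). Tmem178 and Clec2m separate stepwise, Ifi204 is low from passage 2, Stfa2l1 from passage 3, and Retnlg at passage 4.

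The knockout arm at passage 4 was also compared with AE9a; 296 genes passed (1.33%; 0.307% higher, 1.03% lower). Both comparisons use the same AE9a arrays, so their values are set side by side and no agreement is read from them. For Cd3g the difference from AE9a was -4.65 when miR-126 was added and -4.27 when it was deleted, and for Gzmb -3.86 and -3.77. For Stfa3 it was -6.28 and -6.08, with knockout readings of 4.01, 3.97 and 3.93, and in normal controls Stfa3 had a mean of 4.57 ± 0.49 (SD, n = 3). For Retnlg it was -7.13 and -1.25, for Ltf -5.91 and -1.13, for H2-Aa -5.91 and -0.97, and for Ifi204 -5.25 and 0.48. For Tmem178 it was 5.73 and -0.06, and for Flt3 3.18 and 1.08. Olfm4 had -6.19 and -5.33, Cebpe -3.35 and -2.44, and Hpgd 3.47 and 2.95. By list, the knockout passed as lower than AE9a in 20 of 28 T and NK cell genes, 7 of 10 stefin genes and 6 of 14 interferon gamma GTPases. It did so in 1 of 22 secondary granule and S100 genes and 0 of 21 neutrophil receptors. Added miR-126 was also set against the knockout directly, a comparison without the AE9a arrays, in which 2960 genes passed (13.3%; 5.05% higher, 8.3% lower). The difference was -5.88 for Retnlg, -4.78 for Ltf, -4.94 for H2-Aa and -5.73 for Ifi204, and each passed. It was -0.38 for Cd3g, -0.19 for Stfa3 and -0.09 for Gzmb, and none of these passed. Stfa2l1 (-3.60), Ccl5 (-2.36) and Trav9d-3 (-1.83), of the same groups of genes, did pass, as did Klrb1c (2.02). Tmem178 (5.79) and Flt3 (2.10) also passed, while Olfm4 (-0.86), Cebpe (-0.91) and Hpgd (0.51) did not.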

How the data were processed

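RNA of sorted donor marrow cells was hybridised to Affymetrix Mouse Gene 2.0 ST arrays, 1 array per mouse. The authors deposited log2 expression values made by RMA with Partek, per the submitters' processing notes; RMA fits background and quantile steps over arrays, and the sources used here do not give its settings. Of 27037 probe sets 23521 had 1 gene symbol, 1814 several and 1702 none; the probe set with the highest mean stood for each of 22180 genes.

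Group means of 13 groups over all 39 arrays were fitted in limma 3.58.1 (R 4.3.3; lmFit, contrasts.fit, eBayes), with 26 residual degrees of freedom and Benjamini-Hochberg adjustment over all genes. The script was tested on simulated data. Genes were named by size of difference without overlap, by passing in all 4 fits, by the change between passages and by smallest adjusted p in each list; further genes, mainly ones that did not pass, were chosen after their values were seen. Members and lists were chosen with earlier results of these data known. Alternatives were other scalings, array weights, the SD covariate, filters, a replicate block and leaving out arrays. Promoter sequences were found for 118 of 156 genes named by rule.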

Additional observations from a re-analysis of the deposited data

Results flagged for a closer look

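The difference between AE9a+miR-126 and AE9a at passage 4 differed from that at passage 1 in 2336 genes, by a test of the change itself in limma. The genes with the largest change were Tmem178 (5.70), Clec2m (4.21), Mid1 (3.55) and Btbd35f1 (3.38) toward higher values, and Stfa3 (-6.56), Retnlg (-6.48), Ifi204 (-6.46) and Stfa2l1 (-6.42) toward lower values, each on the log2 scale. Btbd35f1 rests on replicates 1 and 2 with added miR-126, which read 11.17 and 11.23 at passage 4, while replicate 3 read 7.66.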

How the results depend on the processing

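The passage 4 count depended on which arrays and scaling were used, and the cause was not tested. The 5488 genes became 1357 (178 higher, 1179 lower) when only the 6 arrays were fitted, 3263 (692 higher) with dim genes left out, 15278 (8612 and 6666) with array weights, 2319 (1315 and 1004) with the SD covariate, 2117 (1174 and 943) when the 8 arrays of low spread were left out, and 2370 (659 and 1711) with a 2-fold minimum. Cyclic loess moved the rises to 1760. Leaving out 1 of the 6 arrays in turn gave 2126 to 10765 genes, 723 to 5937 higher and 1400 to 4828 lower. Genes called both with and without the SD covariate numbered 1424, with 0 in opposite directions.

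The change between passages 1 and 4 (2336 genes) gave 1556 (230 higher) with dim genes left out, 13981 (7527 and 6454) with array weights, 1169 (480 and 689) with cyclic loess, 1261 (569 and 692) after quantile normalization, 751 (367 and 384) with the SD covariate, 975 (405 and 570) when arrays of low spread were left out, and 1350 (208 higher) with only the 12 arrays. Leaving out 1 array in turn gave 818 to 8452 genes, 219 to 4563 higher and 599 to 3889 lower.

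The labels do not say whether replicate numbers pair the mice. Deviations from the group mean correlated at -0.26, 0.30 and -0.19 between same-numbered mice of the compared groups. Between differently numbered mice the correlations ran from -0.34 to 0.35. They cannot show whether mice were paired, since the deviations from a mean of 3 arrays depend on each other. With the replicate number as a block 5167 genes passed at passage 4 (2606 higher, 2561 lower), and 2051 for the change.

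Of the 124 genes named, 95 passed at passage 4; 79 of these passed in the same direction in every setting tried, 16 did not pass in at least 1 (Btbd35f1, Car1, Cd34, Ctsg, Dntt, Eif2s3y, Elane, Errfi1, Irs2, Kdm5d, Kit, Mcpt8, Myd88, Ptprc, Spi1 and Uty), and 0 reversed. Leaving out single arrays ended the calls of Btbd35f1, Car1, Cd34, Ctsg, Elane, Errfi1, Kit, Mcpt8 and Ptprc. Reversals concerned genes that did not pass. With cyclic loess the difference took the other sign at 0.14 for Ccl3, 0.44 for Cd68, 0.17 for Cybb, -0.25 for Gzma, 0.11 for Mki67, 0.14 for Mmp8, -0.047 for Pax5, 0.33 for Runx1 and 0.14 for Zzef1. After quantile normalization the difference took the other sign at 0.29 for Cd68, 0.20 for Gfi1, -0.26 for Gzma, 0.033 for H2-Oa, 0.081 for Mki67, -0.031 for Pax5, 0.30 for Runx1 and 0.22 for Zzef1. With the array SD as a covariate the difference took the other sign at 0.65 for Cd68, 0.18 for Cybb, 0.26 for Gfi1, -0.026 for Gzma, 0.30 for H2-Oa, 0.45 for Mki67, 0.37 for Runx1 and 0.24 for Zzef1. Without the arrays of low spread the difference took the other sign at 0.40 for Cd68, 0.040 for Cybb, 0.50 for Gfi1, -0.26 for Gzma, 0.38 for H2-Oa, 0.30 for Mki67, -0.37 for Ncr1, -0.13 for Pax5, 0.50 for Runx1, -0.0034 for Runx1t1 and 0.030 for Zzef1. With array weights the difference took the other sign at 0.11 for Ms4a1, -0.16 for Prtn3 and -0.022 for Runx1t1. Leaving out 1 array in turn gave -0.36 to 0.11 for Cd68, -0.65 to 0.021 for Gfi1, -0.068 to 0.18 for Gzma, -0.52 to 0.18 for H2-Eb2, -0.29 to 0.082 for H2-Oa, -0.13 to 0.35 for Irf8, -0.47 to 0.042 for Ms4a1, -0.012 to 0.26 for Pax5, -0.20 to 0.26 for Prtn3 and -0.021 to 0.21 for Runx1t1. With 3 mice a group, precision was limited: the median standard error of a difference was 0.22 on the log2 scale.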
